A study of Homo sapiens with 6 samples.

Results

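A sharp methylation border is a place where CpG methylation changes from low to high between neighbouring stretches of a chromosome. Borders were taken here as pairs of adjacent 1000-base windows whose mean methylation differed by at least 60 percentage points, with windows counted from position 1 of chromosomes 1 to 22 of the hg19 build. Each window had to hold at least 3 CpGs with at least 10 reads in all 6 libraries, and its level was the plain mean over those CpGs and libraries. Of 7340 adjacent pairs, 652 (8.88%) met this rule. Their 1280 windows, of 33264 measured, comprised 632 that were low in their pair and 648 that were high, and no window was both. Because the mean of the 6 libraries chose the pairs, the levels and steps below are descriptions, and tests were run only on the difference between treatments, which the rule did not use. The place of the border inside a pair is tied to the rule in part, since a large step between windows favours a place near their boundary.

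The libraries were made from PC-3, an established human prostate carcinoma line. DNA came from 3 samples of cells given 160 µM S-adenosylmethionine (SAM), the methyl donor used by DNA methyltransferases, and from 3 control samples given PBS, both for 5 days. CpG methylation was read by bisulfite sequencing, in which unmethylated cytosines are read as T and methylated ones as C. The labels do not say whether replicates were separate cultures, so each p-value below reflects the spread among these samples alone, and that spread may be technical.

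In mammalian genomes most CpGs are methylated, and CpG-dense stretches, the CpG islands, are mostly not. Many islands lie over gene promoters, where binding of transcription factors and the histone marks of active promoters keep DNA methyltransferases away. The flanks of islands, called shores, hold the change from one state to the other, and in cancer cells methylation can spread into islands or be lost outside them.

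Within each pair, the dividing gap was the interval between neighbouring CpGs that best split the pair's CpGs into a low and a high set, with at least 2 CpGs in each. Gene starts were located by matching the spacing of CGs in RefSeq promoters (table of build GRCh38.p14, 250 bases before to 50 after the start) to the listed CpG positions, so the places given are hg19 places from this match. The gap lay within the 300 bases of 5 promoters, and 4 of them are printed because they show the border in the promoter's own letters. They were singled out after their values had been seen. Capitals mark the CGs measured in all 6 libraries on the high side of the gap, the rest is in lower case, and each sequence reads 5′ to 3′ along its gene.

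CMTM3 promoter: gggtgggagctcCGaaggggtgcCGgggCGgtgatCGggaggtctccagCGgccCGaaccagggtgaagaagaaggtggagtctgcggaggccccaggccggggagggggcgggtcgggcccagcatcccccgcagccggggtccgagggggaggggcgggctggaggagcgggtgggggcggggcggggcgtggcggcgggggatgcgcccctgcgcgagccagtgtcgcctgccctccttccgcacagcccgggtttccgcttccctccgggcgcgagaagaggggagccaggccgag
SNHG28 promoter: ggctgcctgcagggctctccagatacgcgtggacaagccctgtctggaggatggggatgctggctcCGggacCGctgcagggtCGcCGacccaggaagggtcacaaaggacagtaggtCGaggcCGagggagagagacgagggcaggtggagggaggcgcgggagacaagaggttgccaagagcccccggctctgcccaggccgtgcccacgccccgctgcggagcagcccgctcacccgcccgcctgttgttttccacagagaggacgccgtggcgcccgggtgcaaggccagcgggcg
ARHGEF4 promoter: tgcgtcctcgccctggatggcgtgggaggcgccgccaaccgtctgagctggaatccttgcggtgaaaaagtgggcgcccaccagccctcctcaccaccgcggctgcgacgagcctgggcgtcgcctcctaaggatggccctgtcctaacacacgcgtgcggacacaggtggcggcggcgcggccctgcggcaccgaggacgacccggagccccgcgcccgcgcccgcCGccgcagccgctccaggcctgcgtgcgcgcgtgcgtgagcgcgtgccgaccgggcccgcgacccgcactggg
NETO1-DT promoter: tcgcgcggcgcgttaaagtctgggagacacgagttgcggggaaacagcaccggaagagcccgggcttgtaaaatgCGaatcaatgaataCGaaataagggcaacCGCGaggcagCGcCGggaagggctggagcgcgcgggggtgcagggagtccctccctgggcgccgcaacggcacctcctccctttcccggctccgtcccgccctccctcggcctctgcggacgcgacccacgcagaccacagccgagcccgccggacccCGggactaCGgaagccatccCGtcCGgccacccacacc

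CMTM3 encodes a chemokine-like factor family protein with a MARVEL domain, and its promoter was placed at chr16:66638384-66638683 on the plus strand. The 6 capital CGs lie between -238 and -196 bases from the start and were methylated at 96.8 to 99.3%, except the one at -196, which stood at 78.8%. The 4 measured CGs from +20 to +46 were at 0 to 5.65%. The 216 bases between these groups held no CpG measured in all libraries, so the change falls somewhere in that stretch. At the CpG at -196 the 6 libraries lay between 70.8 and 85.7%, and at +46 all 6 read 0%, from at least 23 reads each. The start lies inside the gap, on the low side of its centre, so the level at the start itself is not known. Its window as a whole was the high one of the pair (70.7% against 2.16%). The steps of the pair were 67.3, 67.3 and 69.6 points with SAM and 68.4, 68.9 and 69.7 in controls, and the groups overlapped.

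SNHG28 is a long non-coding RNA gene of the small nucleolar RNA host class, with its promoter at chr1:159824778-159825077 on the minus strand. Its 6 capital CGs from -184 to -126 were partly methylated, at 33.9 to 69.7%, and the 7 measured CGs from -20 onward were at 0.168 to 7.52%. A gap of 106 bases parted them, the same gap in all 6 libraries. ARHGEF4 encodes a guanine nucleotide exchange factor, and its promoter was placed at chr2:131720978-131721277 on the plus strand. There the change was a slope: 64.4% at -23, 37.0% at -20, 25.7% at -14, 21.2% at -1 and 2.78% at +5, then up again to 34.4% at +28. Control replicate 2 raised both ends, with 91.7% at -23 from 12 reads and 71.4% at +28 from 14 reads. The other libraries read 51.3 to 73.1% and 21.3 to 31.9% at these CpGs. The dividing gap of 3 bases at ARHGEF4 was found in 3 of 6 libraries only.

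NETO1-DT is the divergent transcript of NETO1, which encodes an auxiliary protein of neuronal glutamate receptors. One of its starts, with the promoter at chr18:70536025-70536324 on the plus strand, lay on the high side: 9 of the 10 capital CGs were at 77.8 to 99.1%, and the gap of 15 bases sits between a CpG at 40.6% (-190) and one at 95.4% (-175). The tenth, at -133, read 1.76%, with 0 to 5.60% in the single libraries, although the CpG 3 bases before it read 90.3%. A cytosine that is T in the cells' own DNA is read as unmethylated by this assay, and whether that applies here was not tested. In the fifth promoter, that of LOC124902417 at chr10:44185378-44185677, the 5 measured CpGs from -61 to -32 read 39.1, 20.2, 9.70, 6.10 and 11.1%, with libraries at the first of them between 16.7 and 50.9%.

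The border pairs were the far end of a skewed distribution with a second rise at its extreme. Most adjacent windows were alike, with a median step of 3.31 points over all pairs and 4734 pairs under 10 points. The number of pairs fell to 162 at 50 to 60 points, stayed at 161, 140 and 139 in the next 3 classes of 10 points, and was 212 at 90 to 100 points. The median border step was 82.0 points (quartiles 70.1 and 92.8, highest 99.2). In 428 pairs the low window was under 20% and the high window over 80%, and in 265 they were under 10% and over 90%. Methylation rose along the chromosome in 333 pairs and fell in 319.

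**Figure D1:**
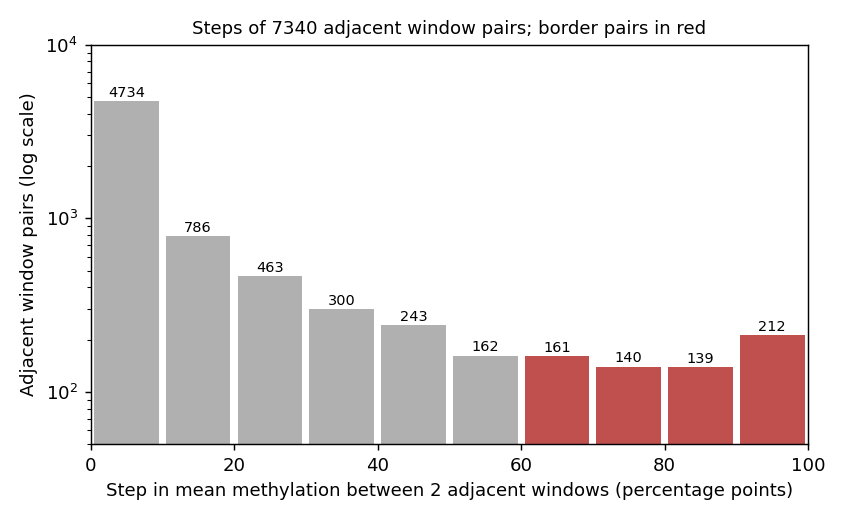
Number of adjacent window pairs (vertical log axis, starting at 50) by the step in mean methylation between them in percentage points, over all 7340 pairs, with the 652 border pairs in red. The counts fall to 162 just under the bound of 60 points and end with 212 pairs at 90 to 100 points.

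Nothing in the counts set 60 points apart from its neighbourhood. The 3 pairs just inside had steps of 60.02, 60.03 and 60.17 points, at chr2:235405001, chr5:175155001 and chr4:77817001 (starts of their first windows). The 3 just outside had 59.92, 59.76 and 59.72 points, at chr20:31045001, chr4:3768001 and chr2:24272001. The first of the inside pairs ranged from 39.5 to 74.1 points over the libraries.

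Low windows had a median level of 4.12% and high windows one of 94.1%. The 8491 CpGs in low windows were under 20% in 87.4% of cases and between 20 and 80% in 11%. The 5088 CpGs in high windows were over 80% in 82.2% of cases and intermediate in 15.2%. The low side was also the CpG-dense side, with a median of 32 listed CpGs per window (quartiles 17 and 50) against 13 (6 and 25) on the high side. More CpGs were listed in the low window in 491 pairs, more in the high window in 150, and equal numbers in 11. Other windows with a measured neighbour had nearly the same densities at the same level, with medians of 31 listed CpGs under 20% (6685 windows) and 14 over 80% (3100 windows). Listed CpGs are those any library covered, so this density depends on coverage as well as sequence.

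Borders were found on every chromosome from 1 to 22, from 6.04% of adjacent pairs on chromosome 18 to 12.1% on chromosome 22. Most low windows had a border found on a single side, but for most of these the window on the other side was not measured. In 20 cases a low window lay between 2 high windows, a narrow unmethylated stretch, and in 4 cases a high window lay between 2 low ones. Beyond the pair, the next window outward was measured for 251 low sides and was under 20% in 68.1% of them. On the high side the next window was measured for 115 and was over 80% in 72.2%. At 3 windows outward the shares were 38.0% of 71 and 52.0% of 50.

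How sharp the change is within a pair was limited by where CpGs were measured. The dividing gap had a median of 702.5 bases (quartiles 334.5 and 1036, from 2 to 1910), and in 503 pairs it held the boundary between the windows. The gap was the same in all 6 libraries in 493 pairs (75.6%) and in at least 5 of them in 562. In 402 pairs the CpGs on both edges of the gap were themselves under 20% and over 80%, so that the measured CpGs beside the gap skipped the intermediate levels. Only 16 of these had a gap of 100 bases or less. The distance from the nearest CpG under 20% to the nearest over 80% had a median of 765 bases over the 639 pairs that had both, and was 100 bases or less in 32.

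CpGs were more often intermediate close to the gap than away from it, above all on the low side. On the low side the mean was 26.7% within 25 bases of the gap's centre, 15.3% at 100 to 200 bases and 5.18% at 1000 to 1500 bases. On the high side it was 82.5%, 87.2% and 93.7% at the same distances. Of CpGs within 25 bases, 65.2% on the low side and 39.7% on the high side stood between 20 and 80%. Their median was 27.1% on the low side and 88.5% on the high side. The nearest distances come only from pairs with short gaps (87 pairs within 25 bases), so the curve joins different pairs. In the 93 pairs with a gap of 100 bases or less, whose CpGs reach to the centre, the mean on the low side was 25.3% at 50 to 100 bases and 7.02% at 200 to 400 bases, and on the high side 84.2% and 88.2%. The median CpG at these distances was at 18.2% and 3.55% on the low side and at 96.3% and 97.4% on the high side.

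**Figure D2:**
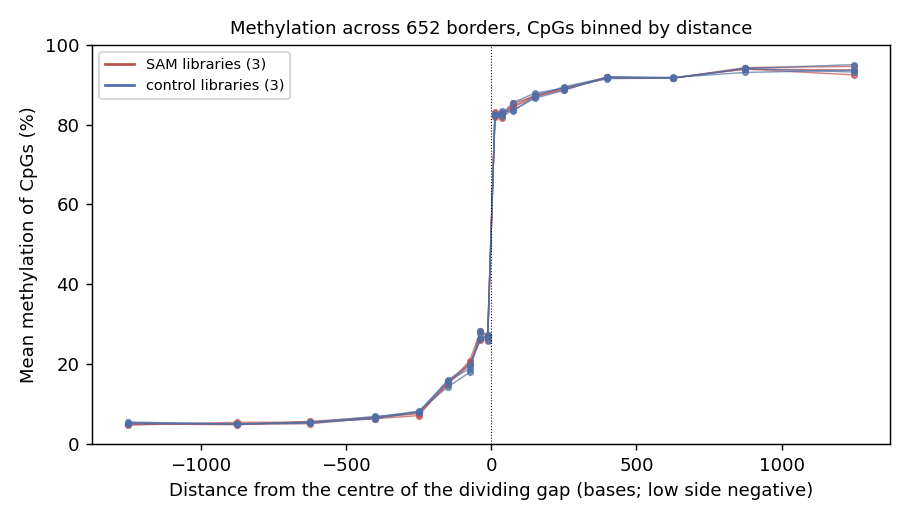
Mean methylation of CpGs (percent) against distance in bases from the centre of the dividing gap, low side negative, with a line for each of the 6 libraries. All libraries run from about 5.18% far out on the low side through 26.7% and 82.5% beside the gap to 93.7% on the high side, and the SAM and control lines lie on each other.

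The 32 pairs in which a CpG under 20% and one over 80% lay within 100 bases were looked at singly, a set chosen by its values. In 27 of them the 2 CpGs differed by at least 60 points in every library, and in 13 the low one was under 20% and the high one over 80% in every library. The shortest change spanned 6 bases, from chr17:53343023 at 16.5% to chr17:53343029 at 94.1%. Its low CpG read 4.39 to 16.3% in 5 libraries and 55.4% in SAM replicate 2, from 83 reads, so this step is less certain there. At chr1:228400328 and chr1:228400321, 7 bases apart, methylation was 4.22% and 97.5%, with no library above 5.56% at the first or below 94.1% at the second. At chr20:62696908 and chr20:62696921, 13 bases apart, all 6 libraries read 0% and at least 96.0%. A lone cytosine that is T in the cells' DNA would also read as 0%, which was not tested.

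Among these 32 pairs, 9 held a placed promoter. At SARM1, the gene of an NAD-consuming enzyme of axon degeneration, methylation went from 2.11% to 96.5% within 82 bases. At ABCA3, a lipid transporter gene of lung surfactant cells, it went from 6.85% to 98.4% within 85 bases, and at PLEKHD1 from 1.11% to 96.3% within 49. In these 3 no library was above 11.1% at the low CpG or below 93.6% at the high one. A shorter change was that of COL4A1 and COL4A2, the genes of the main collagen IV chains of basement membranes, which share a bidirectional promoter. Both starts, at chr13:110959504 and chr13:110959631, fell in the low window chr13:110959001-110960000, and the gap lay between chr13:110958997 and chr13:110959022, 494.5 bases into COL4A1 from its start to the gap's centre. With SAM the low window read 1.79, 10.1 and 2.66%, and in controls 3.32, 3.18 and 1.22%. Methylation of the high window was 81.2, 74.5 and 82.8% with SAM and 86.3, 89.3 and 83.0% in controls. All 6 libraries placed the change in the same gap of 25 bases, although SAM replicate 2 stood apart on both sides. The SAM libraries were the 3 lowest in the high window, and the window did not pass the test for a treatment difference given below.

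**Figure D3:**
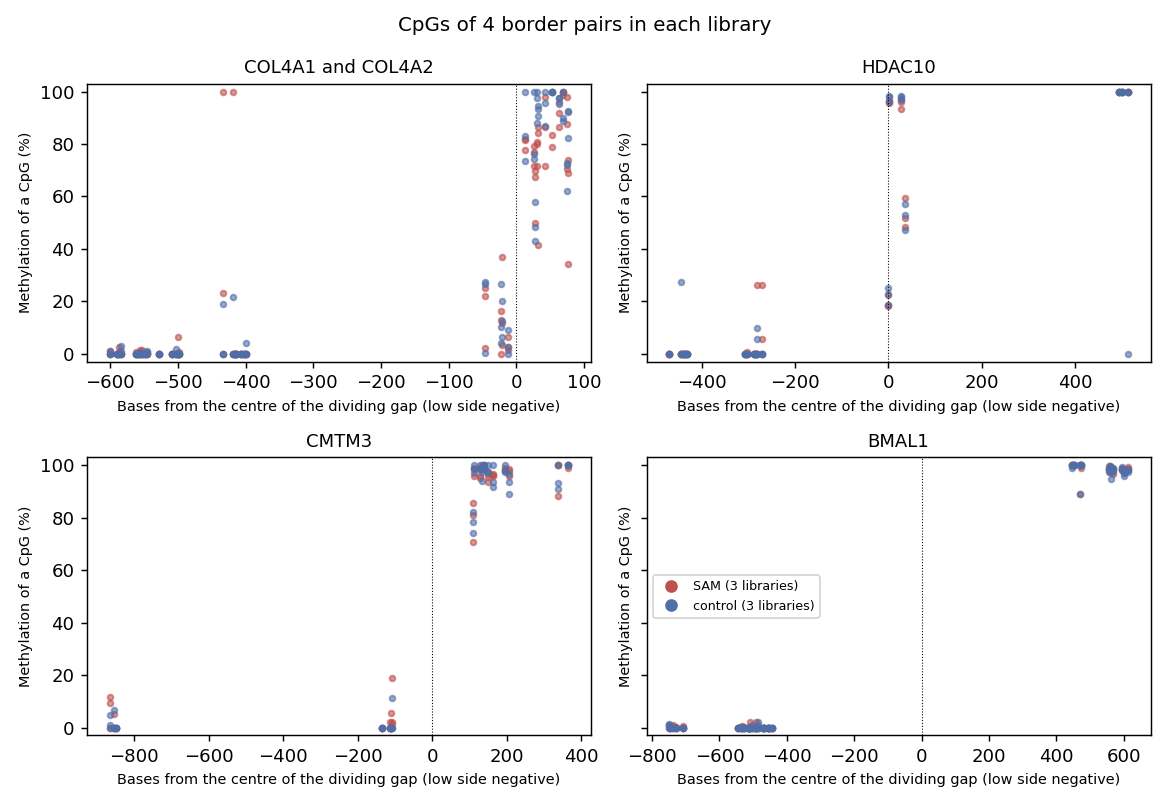
Methylation of every CpG measured in all 6 libraries (percent; 1 point per library, SAM red, control blue) in 4 border pairs, against bases from the centre of the dividing gap. The dividing gap spans 25 bases at COL4A1 and COL4A2, 4 bases at HDAC10, where a CpG beyond it stands at 52.8%, and unmeasured stretches of 216 and 891 bases at CMTM3 and BMAL1.

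More gene starts lay in low than in high border windows, as was so for all placed genes. Of 6019 genes with a start placed in a measured window, 5109 had it in a window under 20% and 331 in one over 80%. In border windows 183 genes had a start on the low side and 29 on the high side, and 3.37% of placed promoters were in border windows. The low group comprised 149 protein-coding and 34 long non-coding RNA promoters, the high group 15 and 14. In high windows, 12 of 29 starts lay on the low side of the gap's centre. Several of these, CMTM3 among them, lay inside the gap itself, where no CpG was measured in all libraries. For starts in low windows, the methylated neighbour was downstream in 94 combinations of start and border and upstream in 94. Among all placed promoters in windows under 20%, 5.70% of 1457 measured downstream neighbours and 6.43% of 1306 upstream neighbours were borders. The median distance from a start in a low window to the gap's centre was 546.25 bases.

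The letters GGGCGG or CCGCCC, the core of the GC box bound by SP1-family factors read on either strand, were present in 90.2% of the 183 promoters in low border windows. They were present in 82.8% of the 29 in high border windows, in 88.0% of 5171 promoters in other windows under 20%, in 71.7% of 329 in other windows over 80%, and in 45.0% of all 35116 promoters of the table. Placing a promoter needed at least 8 listed CpGs, which favours CG-rich promoters, so the last share is not of like promoters.

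The largest steps, among the 98 pairs with at least 10 measured CpGs in each window, left almost no room for more. The largest was at BMAL1, which encodes a core transcription factor of the circadian clock, in chr11:13299001-13300000 and the window after it. The low window, which holds the start, read 0.180, 0.199 and 0.111% with SAM and 0.191, 0 and 0.0828% in controls. The high window, downstream, read 99.0, 99.2 and 97.7% with SAM and 99.0, 97.2 and 98.8% in controls. The step was 98.4 points, the treatments overlapped on both sides, and the 891 bases between the sides held no measured CpG.

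NSD1, a histone lysine methyltransferase gene, and BCL2L11, the gene of the pro-apoptotic protein BIM, had steps of 97.9 points each. In both, the methylated window lay upstream of the start, at chr5:176559001-176560000 and chr2:111877001-111878000. NSD1 ranged from 96.9 to 99.0 points over the 6 libraries and BCL2L11 from 97.2 to 99.3. The other 7 of the 10 largest had no placed promoter and had steps of 94.2 to 98.1 points. Their low windows began at chr8:145754001, chr7:157483001, chr18:19750001, chr8:145051001, chr22:50624001, chr19:56165001 and chr4:13546001. All 10 kept the same dividing gap in all 6 libraries, which is tied to their choice by step, since so large a step leaves the split little freedom.

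A short gap could hold a small or a large part of the change. The 10 shortest gaps among the 328 pairs with at least 5 CpGs on each side were 2 to 6 bases wide. In 7 of them the step across the gap itself was 10.9 to 52.1 points, and in those of chr17:53342001, HDAC10 and KDR it was 77.6, 75.9 and 69.4 points. MYO1C, an unconventional myosin gene, had a gap of 2 bases with 48.1% on one edge and 60.3% on the other. CHRM4, a muscarinic acetylcholine receptor gene, had 29.7% and 64.9% across 3 bases. These gaps moved between libraries, the mean one being found in 3 and 2 of them.

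HDAC10 encodes a histone deacetylase family member that acts on polyamines, and its start lies at chr22:50689694 in a low window with a methylated window on either side (94.1% downstream and 78.6% upstream). The low window read 0, 4.74 and 0.575% with SAM and 0, 3.0 and 0.880% in controls. Upstream the values were 80.3, 80.5 and 81.1% with SAM and 82.4, 80.03 and 67.4% in controls, so control replicate 3 was the low one and the groups overlapped. The upstream gap of 4 bases, from 20.9% at chr22:50690015 to 96.8% at chr22:50690019, was the dividing gap in all 6 libraries. The change was not complete there: a CpG 35 bases into the high side from the gap's centre stood at 52.8% (47.1 to 59.5% over the libraries), and the next measured CpG on the low side, at -271 bases, at 5.30%.

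KDR encodes a receptor of vascular endothelial growth factor, and its start at chr4:55991762 lay in a low window of 6.77% with a downstream window of 86.8%. Across the gap of 5 bases methylation went from 28.2% to 97.6%, and 3 libraries shared that gap. Its low window read 16.5% in SAM replicate 2 and 4.07 to 6.07% in the other 5 libraries. The remaining pairs of this class included that of ARHGEF4 (a step of 67.0 points) and that shared by the non-coding genes LOC101929373 and LOC105378267 (82.1 points). The others had no placed promoter and lay at chr1:1534001, chr8:70744001, chr6:33244001 and chr17:53342001, with steps of 62.5, 61.3, 83.3 and 76.3 points.

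Gene groups with known ties to DNA methylation had few placed genes, and 0 or 1 of each lay in a border. Of 14 placed genes on a list of promoters hypermethylated in prostate cancer, 1 was in a border, PHLPP1, which encodes a phosphatase of AKT, with 0.637% over its start and 86.3% upstream. Of 8 placed HOX genes 1 was, HOXD11, with 13.5% over its start and 90.5% downstream. Among 33 placed developmental transcription factors the only one was PAX7, a regulator of muscle stem cells. Its start window at 24.8% had methylated windows of 89.3% and 86.0% on either side. The PAX7 start lies inside the upstream dividing gap, on the high side of its centre, so the level at the start itself is not known. Of 7 placed imprinted genes 1 was in a border, L3MBTL1, a chromatin reader expressed from the paternal allele in blood. It had 4.99% over its start and 81.8% upstream. None of 11 placed genes of DNA methylation enzymes and readers, 7 of the methionine cycle, in which SAM is made and used, or the 1 placed clustered protocadherin was in a border. Over all placed genes 3.49% were, so these counts of 0 and 1 are too small to read.

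Border steps were nearly the same in each library. The mean step over the 652 pairs was 81.3, 81.0 and 81.4 points in the SAM libraries, by replicate number, against 81.2, 81.2 and 81.4 in the control libraries. In 526 pairs the step was at least 60 points in all 6 libraries, and in all 652 it kept its direction in each. The range of a pair's step over the libraries had a median of 9.21 points, was under 10 points in 360 pairs and over 30 in 24. When the other 5 libraries set the pairs, 91.9 to 95.4% of them had a step of at least 60 points in the library left out. When the 3 controls set them, 93.9, 91.6 and 94.9% did in the 3 SAM libraries.

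The spread of border windows over libraries stood beside that of other windows as follows. The median SD over the 6 libraries was 1.65 points in low border windows and 0.749 in other windows under 20%, whose median levels were 4.05% and 0.784%. In high border windows it was 1.84 points, beside 1.69 in other windows over 80%, with 5 and 4 measured CpGs at the median. The sets compared are not at equal levels.

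The treatment comparison asked whether SAM moved the levels on either side of a border or the step between them. Low windows averaged 8.46% ± 0.125 with SAM against 8.50% ± 0.112 without it (SD, n = 3 for each value here). High windows averaged 89.7% ± 0.128 with SAM against 89.7% ± 0.0327 without. Steps averaged 81.2 ± 0.196 points with SAM against 81.2 ± 0.111 without, which is -0.0199 points as SAM minus control, with a standard error of 0.130. The sign of that difference turned with a minimum of 20 reads (0.207 points) and with CpGs weighted by reads (0.147 points), and the low windows, at -0.0412 points, moved to -0.224 and -0.303. The groups overlapped in all 3 measures at the minimum of 10 reads with equal weights.

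**Figure D4:**
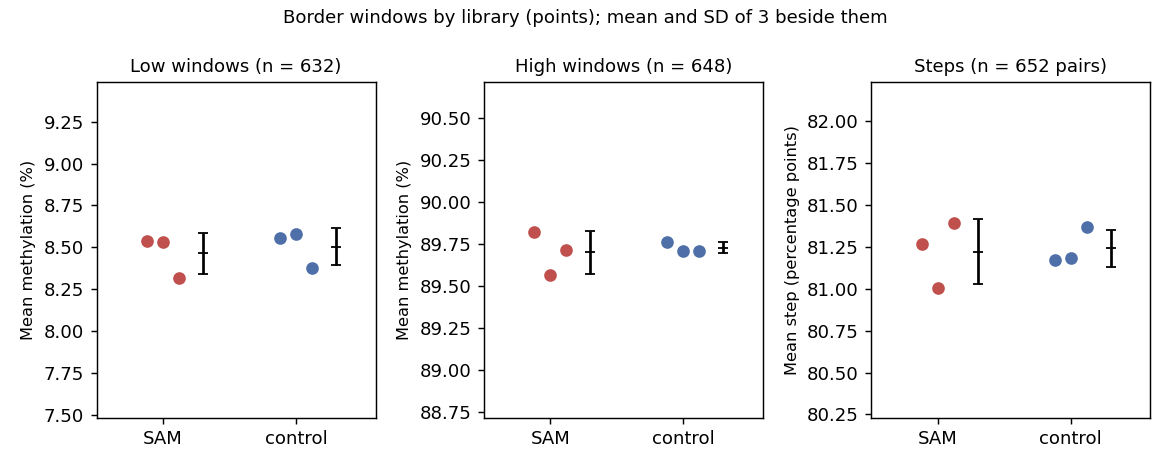
Mean methylation of low and high border windows (percent) and mean step (percentage points) in each library, with the mean and SD of 3 libraries beside them. Each panel spans 2 points on its vertical axis, which does not start at 0, and the SAM and control libraries overlap in all 3.

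Read depth per window put SAM replicate 1 together with control replicates 1 and 3, and control replicate 2 together with SAM replicates 2 and 3. The deviations of log2 reads correlated across windows at 0.0403 to 0.849 within these coverage sets and at -0.889 to -0.0501 between them, a description over windows that share their libraries. SAM replicate 2 correlated with SAM replicate 3 at 0.0998 and with control replicate 2 at 0.0469. Control replicate 1 correlated with SAM replicate 1 at 0.283 and with control replicate 3 at 0.0403. The places of these 2 libraries in the sets are therefore less sure. Within the sets the step differed by -0.00379 and 0.0141 points, the low windows by 0.0711 and -0.153 points, and the high windows by 0.0859 and -0.0689 points. The signs differed between the sets for each of the 3 measures. Total reads ran from 33056018 to 183523792 per library and median reads at CpGs measured in all libraries from 37 to 149.

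No border window passed the test for a difference with SAM. The quasi-likelihood test of edgeR on methylated and unmethylated reads, adjusted by the Benjamini-Hochberg method over 32885 windows, called 0% of all windows and 0 of the 1274 border windows tested. The other 6 border windows had no methylated or no unmethylated read and were not tested. At an unadjusted p under 0.05 the background was 3.14% of all windows and 39 border windows passed (3.06%). With limma on log ratios 0 windows were called, and 3.88% of all windows and 42 border windows (3.3%) had an unadjusted p under 0.05. For the steps, limma called 0 of 7340 pairs, with a background of 3.6% at an unadjusted p under 0.05 and 27 border pairs (4.14%).

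Counts of windows whose treatment groups did not overlap were also near their backgrounds. Over all windows 5.25% were higher with SAM in this sense and 3.9% lower. Low border windows gave 23 higher (3.64%) and 31 lower (4.91%), and high border windows 39 higher (6.02%) and 26 lower (4.01%). For steps the background was 4.43% larger and 4.51% smaller, and border pairs gave 32 larger (4.91%) and 20 smaller (3.07%). Single differences were wide: the central 90% of low windows spanned -4.94 to 5.53 points and that of high windows -4.36 to 3.64.

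The border pair with the smallest p for its step was that of MCF2L, a guanine nucleotide exchange factor gene, and MCF2L-AS1, its antisense RNA gene, at chr13:113622001-113624000. The step was 91.5, 89.1 and 91.7 points with SAM and 84.6, 78.0 and 79.1 in controls, so the groups did not overlap, yet limma's adjusted p was 0.974. Its high window read 97.2, 92.2 and 93.8% with SAM and 89.1, 82.6 and 88.7% in controls. The next 4 pairs had the same adjusted p from limma. They lay at chr17:72732001, with 65.2 points against 58.3, and with smaller steps under SAM at chr20:36793001 (93.4 against 98.3), chr10:102891001 (84.6 against 94.1) and chr12:58014001 (65.0 against 82.3), the last holding the start of LOC101927583.

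Among single windows the smallest p was at chr15:48938001-48939000, a high window at 100, 100 and 99.96% with SAM and 97.3, 97.5 and 98.1% in controls (edgeR adjusted p = 0.99986). The low window chr20:36793001-36794000 read 7.39, 6.82 and 4.39% with SAM and 0, 0.192 and 0% in controls, with the same adjusted p from edgeR and 44 to 473 reads per library. The low windows at chr5:72733001 and chr8:131370001 and the high window at chr21:46492001 came next, each higher with SAM by 0.728, 0.753 and 3.24 points. All 5 were separated between the groups and none passed the adjusted threshold.

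Among all windows over 80%, the 528 high border windows were 0.125 points higher with SAM (standard error 0.0691, overlapping groups). The 12680 other windows were 0.354 points higher (standard error 0.0699, no overlap). The division by level that follows was not among the planned comparisons. Standard errors here cover the spread of libraries, not the choice of windows. At 80 to 95% the values of border and other windows lay further apart. For the 231 border windows the mean was 88.8% ± 0.172 with SAM against 88.8% ± 0.125 without it (SD, n = 3 for each), which is -0.0185 points as SAM minus control, with a standard error of 0.123 and overlapping groups. The 4801 other windows of this level were 0.453 points higher with SAM, with a standard error of 0.0444 and no overlap. Above 95%, 297 border windows were 0.237 points higher (standard error 0.0328) and 7879 other windows 0.293 points (standard error 0.103), and neither pair of groups overlapped. Within the coverage sets the border windows at 80 to 95% differed by 0.170 and -0.0981 points. The other windows of this level differed by 0.390 and 0.515 points. Whether border windows differ from the others in this was not tested. The share of windows with a higher mean under SAM was 51.1% among the border windows at 80 to 95% and 56.3% among the others.

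**Figure D5:**
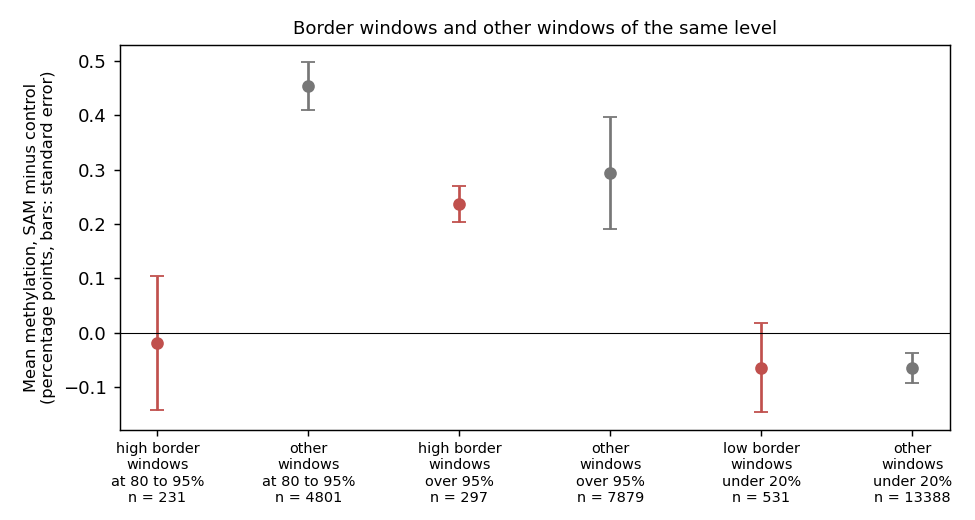
Difference in mean methylation, SAM minus control, in percentage points with its standard error (3 libraries each), for border windows in red and other windows in grey, by level. The 231 high border windows at 80 to 95% sit at -0.0185 points and the 4801 other windows of that level at 0.453, while border and other windows lie close together over 95% and under 20%.

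At the resolution of the measured CpGs, the place of the border did not shift in one direction. In 516 pairs the dividing gap, averaged over 3 libraries, was the same with SAM and in controls. A shift inside the gap, which had a median of 702.5 bases, would not be seen. The rule also favours a place near the window boundary, so these equal places do not show that the border stayed. In the other pairs the gap differed. The gap lay further into the high window with SAM in 70 pairs and further into the low window in 66.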

How the data were processed

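The authors' lists give, per the file headers, each cytosine's position, strand, read count (coverage), and the percent of those reads with C or T. Per the submitters' processing notes the build is hg19, and the tools named are CASAVA 1.8.2, FastQC 0.10.0, methylKit 0.5.3 and Bismark 0.7.4, with their roles and order unstated. For library type, read filters and duplicate removal, the method is not given in the sources used here. Whole methylated reads were computed from these columns, the minus-strand C was joined to the plus-strand C before it, and 330421 CpGs of chromosomes 1 to 22 had at least 10 reads in all 6 libraries. Reads copied in amplification cannot be told from separate molecules, so depth overstates precision.

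Windows were tested with edgeR 4.0.16 and steps with limma 3.58.1 (robust; R 4.3.3), over all windows and all adjacent pairs, at an adjusted p under 0.05, with no replicate block. The tests were also run on simulated data with planted differences. For windows these were planted at intermediate levels, with no spread between libraries beyond read sampling. They therefore do not measure the power of the test at border windows. The members and lists were chosen with earlier results of these data known, including the coverage sets. Pairs named by plan are the 10 with the largest steps, the 10 with the shortest gaps, 3 on each side of the bound and 5 with the smallest p. Genes named by plan are those placed in them or on the lists. The promoters that hold a gap, the pairs with the shortest changes and those with the widest spread were named besides, chosen after their values were seen.

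Of 33725 RefSeq promoter entries on chromosomes 1 to 22, 8700 had a single best place by CG spacing (6 neighbouring CGs to seed, at least 8 CpGs matched), of which 8667 (99.6%) lay on the table's chromosome and were kept. No other annotation of hg19 was used here, so windows with no placed promoter carry none. Python 3.11.15, numpy 2.4.6 and pandas 2.3.3 did the rest. Other settings were 20 reads, 5 CpGs, windows moved by 500 bases, read weights, steps of 50 and 70 points, leaving out each library, other tests and, added after the data were seen, the coverage set as a term and pairs set without 1 library.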

Additional observations from a re-analysis of the deposited data

Results flagged for a closer look

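The rule for borders covers chromosomes 1 to 22 only, and border pairs also appeared in the data it leaves out. On chromosome X, 12 of 117 adjacent pairs (10.3%) met the same rule, with a median step of 86.5 points. They entered no comparison above.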

How the results depend on the processing

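The number of border pairs was 362 with a minimum of 20 reads and 313 with a minimum of 5 CpGs, settings that leave 4091 and 4454 adjacent pairs to choose from. Under the other planned settings it lay between 491 (step of 70 points) and 814 (step of 50 points), and it was 650 to 653 without single libraries. The mean step, SAM minus control, was 0.207 points at 20 reads (over the 330 border pairs that still had 3 CpGs in each window) and 0.147 with CpGs weighted by reads, against -0.0199, and -0.105 to 0.0871 without single libraries. For low windows it was -0.224 and -0.303 in the same 2 settings, against -0.0412, and -0.105 to 0.0308 without single libraries. High windows gave -0.0862 to 0.0410 without single libraries. The cause was not tested. At 20 reads the gap was the same in all libraries in 309 (79.6%) of the 388 border pairs that still had a CpG in each window and 4 or more in all. Every setting run called 0 windows and 0 pairs, the replicate block and the coverage set included. With the replicate block the mean step differed by the same -0.0199 points. It must when each replicate number holds a SAM and a control library, so this value is no check. Same-numbered samples did not deviate together (r = -0.00147, 0.00467 and -0.00449), so the numbers were not taken as pairs.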

Other observations

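The border pairs with the widest spread of the step over libraries were singled out after their values were seen. At chr15:43029001-43031000 the step ran from 33.9 points in control replicate 3 to 99.98 in SAM replicate 2, where the high window rested on 32 reads. The PAX7 pair toward chr1:18958001 ran from 25.6 points in SAM replicate 2 to 83.9 in control replicate 3, and its low window read 55.0% and 6.25% in these, from 170 and 62 reads. At chr7:64711001-64713000 the low window read 55.5% in control replicate 3, 20.4% in control replicate 1 and 0 to 1.33% in the other 4 libraries, while the high window stayed at 97.4 to 98.3%.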
